A study of Mus musculus with 2 samples.

Results

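The cells described here are the MHC class II-high cells of the mouse rib callus at 4 days post injury (dpi), 837 cells of the 21259 that were called in 2 single-cell RNA sequencing libraries. They were selected on their transcripts. Cells with at least 200 detected genes and under 10% mitochondrial UMIs (unique molecular identifiers, which count captured transcripts) were first gated as myeloid, with at least 3 UMIs of *Tyrobp* and *Fcer1g* together, under 2% of UMIs on *Col1a1*, *Col1a2* and *Col3a1*, and no UMI of *Siglech*, *Cd3g* or *Nkg7*. Each of the 5044 gated cells was then scored for 5 sets of 4 genes, as the mean z-score of ln(1 + UMIs per 10000). A cell became a member when the set *H2-Eb1*, *H2-Ab1*, *Cd74* and *Ccr7* had its highest score and that score was above 0.3. Of these cells, 510 came from the control and 327 from the *Smo* cKO library. The gate left out cells with a UMI of *Siglech*, *Cd3g* or *Nkg7*, which mark plasmacytoid dendritic, T and NK cells. Cells of these types in which none of the 3 was captured can remain.

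Both genotypes carried *Sox9*:CreER and the *R26*:tdTomato reporter. Control animals had 1 floxed and 1 intact *Smo* allele (*Smo* flox/+) and the *Smo* cKO animals had both alleles floxed (*Smo* flox/flox). Adult mice (8 to 12 weeks) received 3 tamoxifen injections from 7 days before a 3 mm rib resection. Calluses were dissected with most muscle left behind and digested with collagenase and dispase, dead cells were removed, and cells of 3 animals were pooled for each genotype into 1 library. The strain of these animals was not given in the labels. *Smo* encodes the transducer of Hedgehog signaling, and the CreER acts in Sox9+ lineage cells, not by design in blood-derived cells. Because there is 1 library for each genotype, no difference between genotypes could be tested, genotype and library cannot be told apart, and all 95% intervals cover counting error only.

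MHC class II molecules are pairs of alpha and beta chains that display peptides from endocytosed proteins to CD4+ T cells. *Cd74* encodes the invariant chain that occupies the groove during assembly, and H2-DM exchanges its remnant for peptide under the control of H2-O. Dendritic cells hold high class II constitutively. Type 1 and type 2 conventional dendritic cells are known for *Xcr1* and *Clec9a*, and for *Cd209a* and *Clec10a*, and on maturation they gain *Ccr7*, the receptor that guides them to lymph nodes, with *Fscn1* and *Ccl22*. Macrophages can also carry class II, together with the complement genes *C1qa*, *C1qb* and *C1qc*.

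Of the genes of the rule, *H2-Ab1* (ENSMUSG00000073421) and *H2-Eb1* (ENSMUSG00000060586) lie in the H2 cluster on chromosome 17 of GRCm38, at 34257689 to 34269419 and at 34305867 to 34316674. *H2-Aa* (ENSMUSG00000036594), at 34282744 to 34287823 on the minus strand, was not used by the rule. *Ccr7* (ENSMUSG00000037944) is on chromosome 11 at 99144196 to 99155077. The promoters of class II genes are known for a shared arrangement in which the X and Y boxes lie a fixed distance apart. The 150 bases before the start site are shown for 4 class II genes that were high together in the members, from RefSeq on GRCm38.p6, with the letters CCAAT (the core of the Y box) and AGCAAC (in the X box), on either strand, in capitals. CCAAT reads ATTGG on the other strand.
H2-Eb1 (chr17:34305717-34305866, plus strand): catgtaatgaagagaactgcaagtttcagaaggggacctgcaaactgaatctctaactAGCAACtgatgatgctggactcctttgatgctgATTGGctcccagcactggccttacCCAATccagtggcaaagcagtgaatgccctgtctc
H2-Aa (chr17:34287824-34287973, minus strand): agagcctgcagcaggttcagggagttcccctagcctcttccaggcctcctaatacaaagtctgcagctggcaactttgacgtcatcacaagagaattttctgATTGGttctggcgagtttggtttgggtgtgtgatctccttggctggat
H2-DMb1 (chr17:34153041-34153190, plus strand): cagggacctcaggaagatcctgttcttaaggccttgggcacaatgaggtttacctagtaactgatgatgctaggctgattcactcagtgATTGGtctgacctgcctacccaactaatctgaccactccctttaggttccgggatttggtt
H2-Oa (chr17:34092229-34092378, plus strand): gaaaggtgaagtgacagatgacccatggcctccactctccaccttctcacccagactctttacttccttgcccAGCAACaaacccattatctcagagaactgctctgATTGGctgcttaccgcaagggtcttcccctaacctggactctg

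In *H2-Eb1* the X box letters started 92 bases and the CCAAT letters 59 and 35 bases before the start site, and in *H2-Oa* they started 77 and 43 bases before it. The CCAAT letters began 48 bases before the start of *H2-Aa* and 61 bases before that of *H2-DMb1*, and neither stretch held AGCAAC. Of the 12 listed class II genes, 8 were matched to a promoter used here, of which 7 held CCAAT and 4 held AGCAAC within 150 bases. Over all 32851 promoters of the table, these letters were found in 24.5% and 7.75%. The longer run TGATTGG, which contains CCAAT on the other strand and was chosen after the promoters were seen, was in 7 of the 8 genes and in 5.71% of all promoters. These matches describe letters only.

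The control library held 105367110 UMIs in 10747 cells and the *Smo* cKO library 112700220 UMIs in 10512 cells. Control members had 1609903 UMIs and *Smo* cKO members 1347074, with medians of 2676 and 3454 UMIs and 995.5 and 1205 genes per cell. The same barcode was called in both libraries for 613 cells. In these pairs the deeper cell had a median of 35576 UMIs and the shallower 645, with a median ratio of 59.3, and 493 pairs differed at least 10-fold. Among the members, 6 cells of each library carried such a barcode, and 10 of these 12 were the shallower cell of the pair. Values without them are given for the share of members, for the members highest on a set with *C1qb* and *Apoe*, for the counts of genes past 2-fold and for *Ccl5*.

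MHC class II-high cells were a smaller part of the myeloid cells in the *Smo* cKO library. Of 2370 gated control cells 21.5% were members (510, with a Clopper-Pearson interval of 19.9% to 23.2%), and of 2674 gated *Smo* cKO cells 12.2% (327, interval 11.01% to 13.5%). The difference was −9.29 percentage points, with −11.4 to −7.22 as its interval by Newcombe's method. Of all kept cells they were 5.07% and 3.44%, a difference of −1.63 points (−2.20 to −1.07). Without the shared barcodes the difference among gated cells was −9.28 points. Because these are shares of 1 total, other myeloid groups move with them. Gated cells with the set with *Spp1*, *Gpnmb* and *Cd36* highest were 14.2% and 25.2%, those with the *Ccl8*, *Mrc1*, *Fcrls* and *C1qa* set 20.1% and 24.1%, and those with the osteoclast set of *Acp5*, *Ctsk*, *Atp6v0d2* and *Mmp9* 18.1% and 9.87%. When scores were computed within each library, the difference for the class II-high cells was −6.61 points.

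**Figure D1:**
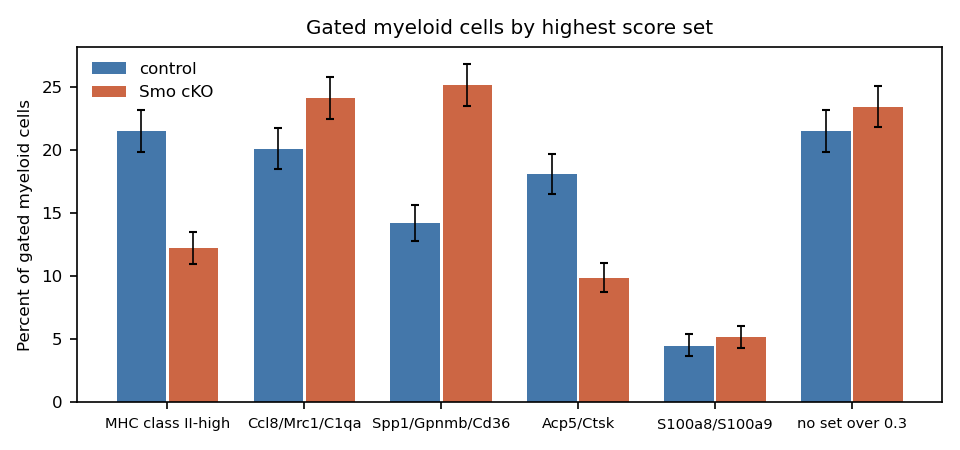
Percent of gated myeloid cells by the gene set with the highest score, for the control (blue) and *Smo* cKO (orange) library, with bars for the share and lines for 95% Clopper-Pearson intervals. MHC class II-high cells make up 21.5% of gated control cells and 12.2% of gated *Smo* cKO cells.

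The values that chose the members are given as a description. The 4 marker genes together took 22314 CPM in control and 22600 CPM in *Smo* cKO members, where CPM is the summed UMIs of a gene as a share of all UMIs of the same cells, scaled to counts in 1e6. *Cd74* was the most abundant, at 12123 and 12731 CPM, followed by *H2-Ab1* at 5005 and 4896 CPM and *H2-Eb1* at 4949 and 4701 CPM. *Ccr7* was captured less often than the other 3, with a UMI in 111 control members (21.8%) and 81 *Smo* cKO members (24.8%). The 3 class II genes with *H2-Aa* took a median of 2.41% of the UMIs of a control member and 2.14% of those of a *Smo* cKO member. The median score was 1.56, between 0.305 and 4.39. Just inside the threshold, 26 members scored 0.3 to 0.4 and had 1476 CPM of *Cd74* and 6770 CPM of *Apoe*. Just outside, 14 cells scored 0.2 to 0.3 and had 1421 CPM of *Cd74* and 15615 CPM of *Apoe*. A further 121 gated cells passed 0.3 on this set but had a higher score on another.

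The label of dendritic cells was checked against further marker genes, which were found beside macrophage genes. *Flt3*, the growth factor receptor of the conventional dendritic lineage, was at 29.2 CPM in control and 16.3 CPM in *Smo* cKO members, and *Zbtb46*, a transcription factor of that lineage, at 9.32 and 13.4 CPM. At least 1 UMI of *Flt3*, *Zbtb46*, *Xcr1*, *Clec9a* or *Cd209a* was found in 79 control members (15.5%) and 58 *Smo* cKO members (17.7%), against 1.26% and 0.930% of the *Ccl8*/*Mrc1*/*C1qa* cells, whose median depths were 2491 and 3407 UMIs. These genes are rare, so most cells that express them can be without a UMI, and the shares do not limit how many members are dendritic cells. A UMI of a C1q gene was found in 62.7% and 68.2% of the members. *C1qa* was part of a competing set of the rule, whereas *C1qb* and *Apoe* were in none. Thinned to 1000 UMIs per cell, *C1qb* was detected in 46.9% and 51.4% of the members (a difference of 4.55 points, −2.39 to 11.6) and in 0.685% and 1.44% of the reference connective cells described further on, which are deeper and without thinning had it in 6.63% and 13.6%, against 56.3% and 63.6% of the members. *Apoe* was at 5598 and 7747 CPM and *C1qb* at 1227 and 1603 CPM, against 20108 and 30101 CPM of *Apoe* and 3159 and 4218 CPM of *C1qb* in the *Ccl8*/*Mrc1*/*C1qa* cells. Because both kinds of genes were found, the members are called MHC class II-high cells here. Of the B cell list of 10 genes, 3 were at 0 UMIs (*Vpreb3* and *Fcmr* among them) and the list together was at 60.9 and 79.4 CPM. Its most abundant genes were *Ighm* at 23.0 and 32.7 CPM, against 3.38 and 7.64 CPM in the other gated cells, and *Ebf1* at 23.6 and 29.7 CPM, against 54.7 and 73.2 CPM. *Cd79a* had 1 and 5 UMIs and *Ms4a1* 0 and 2. Of the T or NK list of 12 genes, *Cd3e*, *Ncr1* and *Klrb1c* were at 0, and the list together was at 224 and 259 CPM, most of it *Il7r* at 148 and 187 CPM. *Cd3d* had 0 and 5 UMIs in the members, the latter 3.71 CPM against 0.798 CPM in the other gated cells. The part of single B or T cells in the results was not tested.

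Compared with all other gated cells of their own library, the members were at least 2-fold higher in both libraries for 146 of 2485 genes (5.88%), counting genes with 50 CPM in both libraries in either the members or the other cells. This is a description of cells chosen by their transcripts. For the genes named next, 50 CPM in the members was required and the genes of the rule were left out. The other class II genes were among the 15 highest. *H2-Aa*, the alpha chain partner of *H2-Ab1*, was at 6045 and 5381 CPM in the members and at 49.1 and 27.1 CPM in the other gated cells, with log2 ratios of 6.94 and 7.64. *H2-DMa* was at 466 and 391 CPM against 17.8 and 30.2 CPM, and *H2-DMb1* at 255 and 315 CPM against 15.7 and 16.6 CPM. *H2-Oa* had 52.2 and 52.7 CPM against 0.376 and 0.399 CPM, and the smaller of its log2 ratios was 7.05. All 8 class II genes that reached 50 CPM, 3 of which chose the members, were at least 2-fold higher in both libraries. Genes such as *H2-Oa* reached 50 CPM only in the members, so this number follows in part from the limit.

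Beyond class II, *Klrb1b*, a lectin-like receptor best known from NK cells, stood highest by the smaller of the ratios in the 2 libraries, with 56.5 and 73.5 CPM in the members and 0.188 and 0.266 CPM in the others. *Klrd1*, which encodes CD94, was at 64.6 and 55.7 CPM against 1.22 and 0.731 CPM, although cells with *Nkg7* had been removed. *Ccl22*, a chemokine of mature dendritic cells, was at 74.5 and 120 CPM against 0.282 and 0.199 CPM. *Ifitm1*, an interferon-induced membrane protein gene, was at 991 and 894 CPM against 33.1 and 39.0 CPM. *Il1r2*, the decoy receptor of interleukin 1, was at 346 and 448 CPM against 12.3 and 20.01 CPM. *Il1b* itself was at 760 and 1813 CPM against 78.7 and 158 CPM. *P2ry10*, *Ramp3*, *Gpr171*, *Plbd1*, *Tbc1d4*, *Nr4a3*, *Map3k14*, *Napsa* and *Bcl2a1d* were ranked with them, and the smaller of their log2 ratios lay between 3.23 and 7.08. Of the mature migratory dendritic list, 7 of 9 genes were 2-fold higher in both libraries, against 5.88% of all genes counted. Genes that are low in the other cells could be counted only through the members, so this number follows in part from the 50 CPM limit.

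The members were divided further by 5 sets of genes other than those of the rule, scored over the members, with a cell placed where its highest set was above 0.3. These are ranges of a score and not cell types. The *Xcr1*/*Clec9a*/*Naaa*/*Wdfy4* range held 58 control and 29 *Smo* cKO members, or 11.4% and 8.87%, a difference of −2.50 points (interval −6.53 to 1.84). The *Cd209a*/*Clec10a*/*Mgl2*/*Sirpa* range held 68 and 41 members, or 13.3% and 12.5%, a difference of −0.795 points (−5.31 to 4.04). The *Fscn1*/*Ccl22*/*Cacnb3*/*Socs2* range held 55 and 42 members, or 10.8% and 12.8%, a difference of 2.06 points (−2.32 to 6.78). All 3 intervals include 0.

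The *Fcgr1*/*Ms4a7*/*C1qb*/*Apoe* range was the largest with a name, with 133 control members (26.1%, interval 22.3% to 30.1%) and 115 *Smo* cKO members (35.2%, 30.0% to 40.6%), a difference of 9.09 points (2.72 to 15.5). Without the shared barcodes it was 8.19 points. Cells were placed without equal depth, and the *Smo* cKO members were deeper, with a median of 3454 against 2676 UMIs. Thinned to 1000 UMIs, the difference in detection was 4.55 points for *C1qb* (−2.39 to 11.6) and 3.80 points for *Apoe* (−3.17 to 10.4). For *Ms4a7* it was 8.23 points (1.87 to 14.5). The part of depth in the size of this range was not tested. No set passed for 174 and 85 members, or 34.1% and 26.0%. A further 22 and 15 members scored highest on the B cell set, but by a rule of at least 2 UMIs only 1 cell was placed there. The same rule placed 329 and 234 members in the *C1qb*/*Apoe* range and only 24 and 10, 29 and 21, and 24 and 19 in the other 3, so the sizes of the ranges depend on how they are drawn. The leading genes of the members highest on the B cell set were *Meg3*, *Nfib*, *Il1rl1*, *Hbegf* and *Srpx2*, and 1691 and 1501 UMIs of the connective list gave them 14101 and 12490.5 CPM, so they are not named. Between 5 and 15 cells of each of the 4 named ranges lay within 0.1 of the threshold.

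Further genes of each range are given by rank, with the genes of its own set left out. They were ranked by the smaller of their log2 ratios over the other members in the 2 libraries. That they are high in both libraries therefore follows from how they were picked. In the *Xcr1*/*Clec9a* range, *Btla*, an inhibitory receptor, and *Cd24a*, a surface glycoprotein of type 1 dendritic cells, led, with *Cd24a* at 290 and 324 CPM and at least 2.91 (log2) above the other members. In the *Cd209a*/*Clec10a* range, *Klrb1b*, *Il1r2*, *Klrd1*, *Rsad2* and *Gpr171* led, with *Il1r2* at 821 and 1598 CPM. In the *Fscn1*/*Ccl22* range, *Serpinb6b*, *Ccl17*, *Ccl5*, *Cd200* and *Il4i1* were high, with *Ccl17*, a ligand of CCR4, at 139 and 295 CPM and *Cd200* at 87.5 and 133 CPM. Genes of muscle and connective tissue ranked among them, with *Eno3* at 62.0 and 51.4 CPM, *Igfbp5* at 62.0 and 81.3 CPM, and *Des*, which ranked highest of all, with 82.3% of its UMIs in the *Smo* cKO members in 1 cell. In the *C1qb*/*Apoe* range, *Fcrls*, *C1qa*, *Ccl12*, *Syngr1*, *C1qc*, *Gdf15*, the heat shock gene *Hspa1a* and *Selenop* led, with *C1qa* at 2519 and 3480 CPM. The members in no range were led by *F10*, *Clec4e*, *Cxcl3*, *Thbs1* and *Slc7a11*, with *Plac8* at 556 and 926 CPM. In that group the median over cells of the summed macrophage set was 2043 CPM in control and 2183 CPM in *Smo* cKO cells, against 16240 and 16840 CPM in the *C1qb*/*Apoe* range. It was 83.5 and 786 CPM in the *Xcr1*/*Clec9a* range, 522 and 233 CPM in the *Cd209a*/*Clec10a* range and 62.1 and 304 CPM in the *Fscn1*/*Ccl22* range.

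The level of class II differed between the ranges. *H2-Aa* was at 10190.3 and 11169 CPM in the *Cd209a*/*Clec10a* range, 8147 and 6747 CPM in the *Xcr1*/*Clec9a* range, 5274 and 4618 CPM in the *Fscn1*/*Ccl22* range, and 4148 and 3443 CPM in the *C1qb*/*Apoe* range. These 4 ranges stood in the same order in both libraries, and the members of no range lay between them at 6207 and 6054 CPM. *Ccr7*, which chose members, was at 675 and 621 CPM in the *Fscn1*/*Ccl22* range and at 2.68 and 24.3 CPM in the *C1qb*/*Apoe* range. *Ccr7* in the *Cd209a*/*Clec10a* range was at 209 and 725 CPM, a log2 ratio of 1.79 (1.26 to 2.35). *Il1b* was highest in the *Cd209a*/*Clec10a* range, at 1495 and 4349 CPM, and lowest in the *C1qb*/*Apoe* range, at 351 and 788 CPM. *Ccl5*, a chemokine for T cells and monocytes, was highest in the *Fscn1*/*Ccl22* range, at 795 and 2457 CPM. The connective list stood at 7510 and 8612 CPM in the *Fscn1*/*Ccl22* range and at 2438 and 4903 CPM in the *Xcr1*/*Clec9a* range, and its part in these values was not tested.

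**Figure D2:**
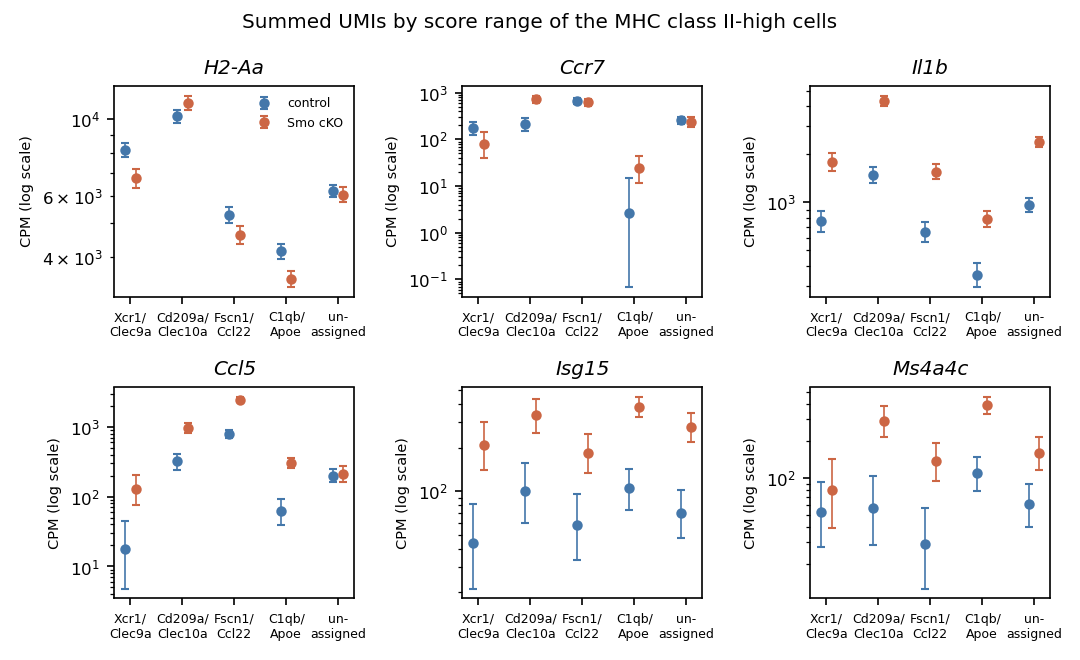
CPM of 6 genes (log axis) summed over the members of each score range, for the control (blue) and *Smo* cKO (orange) library, with 95% Poisson intervals. *H2-Aa* is highest in the *Cd209a*/*Clec10a* range, *Ccl5* in the *Fscn1*/*Ccl22* range, and *Isg15* is higher in the *Smo* cKO library in all 5 ranges.

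Between the libraries, class II is given as a description, since *Cd74*, *H2-Ab1* and *H2-Eb1* chose the members and hold most of the sum. The listed class II genes together were at 29015 CPM in control and 28572 CPM in *Smo* cKO members, a log2 ratio of −0.02 (interval −0.04 to −0.003), and none of the 8 ranked genes was 2-fold higher or lower. Of the genes that the rule did not use, *H2-Aa* had a log2 ratio of −0.17 (−0.21 to −0.12), *H2-DMa* −0.25 (−0.42 to −0.09) and *H2-DMb1* 0.31 (0.11 to 0.50). *Ciita*, the transactivator of class II genes, was at 38.5 and 29.7 CPM, a log2 ratio of −0.38 (−0.99 to 0.22). *Smo* had 7 and 2 UMIs in the members (log2 ratio −1.55, interval −4.85 to 0.84), and a difference was not detectable at this depth. The tdTomato reporter had 1 and 2 UMIs in the members, below the 3 counts taken as the floor. It was rarely captured in the reference connective cells too, with a UMI in 0.672% and 1.70% of them. At 0.638 and 1.43 CPM there, against 0.621 and 1.48 CPM in the members, these counts do not show whether the members carry the reporter.

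Of 2478 genes with at least 50 CPM in the members of either library, 65 were at least 2-fold higher in the *Smo* cKO library (2.62%) and 9 at least 2-fold lower (0.363%), with a median log2 ratio of 0.04. Of these, 44 of the 65 were under 50 CPM in the control and 8 of the 9 under 50 CPM in the *Smo* cKO members, so they were ranked only through the library in which they were high. Without the shared barcodes 67 were higher and 9 lower. Outside the *C1qb*/*Apoe* range, the counts were 67 and 13. Interferon-stimulated genes were among the 65. The list of 20 genes as a whole, which does not depend on that limit, was at 319 and 1304 CPM, a log2 ratio of 2.03 (1.89 to 2.18). Of its genes 11 reached 50 CPM, 10 of them only in the *Smo* cKO members, so that their count past 2-fold (11 of 11) and their median of 1.98 follow in part from the limit. *Isg15*, a ubiquitin-like modifier, was at 71.4 and 282 CPM, a log2 ratio of 1.98 (1.68 to 2.30). *Irf7*, a regulator of type I interferon genes, was at 28.6 and 186 CPM, a log2 ratio of 2.71 (2.25 to 3.19). *Rtp4*, *Xaf1*, *Zbp1* and *Rsad2* had log2 ratios of 2.68, 2.89, 2.32 and 2.03, and *Oasl1*, *Oasl2*, *Slfn5* and *Ifit1* between 1.18 and 1.77. *Bst2*, which encodes the antiviral protein tetherin, was at 162 and 415 CPM, a log2 ratio of 1.36 (1.14 to 1.57).

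The list was also higher in the 2 other groups of gated cells compared here. It was at 433 and 1604 CPM in the *Ccl8*/*Mrc1*/*C1qa* cells and at 206 and 957 CPM in the *Spp1*/*Gpnmb*/*Cd36* cells. Among the members it was higher in every range, with log2 ratios of 1.55 (1.12 to 1.99) in the *Xcr1*/*Clec9a* range, 1.80 in the *Cd209a*/*Clec10a* range, 2.06 in the *Fscn1*/*Ccl22* range and 2.06 in the *C1qb*/*Apoe* range. The promoter of *Isg15* holds the letters GAAA, any 2 bases and GAAA again, a form of the core of the interferon-stimulated response element, in 3 overlapping matches (capitals) that start 78, 72 and 66 bases before the start site.
Isg15 (chr4:156200819-156200968, minus strand): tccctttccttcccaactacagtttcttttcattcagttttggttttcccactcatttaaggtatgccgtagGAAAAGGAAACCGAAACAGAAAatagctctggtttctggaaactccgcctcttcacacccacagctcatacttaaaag

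Of the 20 listed interferon-stimulated genes, 15 were matched to a promoter used here, and 5 of these held the same letters within 150 bases on either strand, against 1.59% of all promoters. *Irf7*, *Xaf1* and *Oasl2* were among those without a match in this window, which says only that these letters are not there.

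All 8 ranked genes of the MHC class I list had a positive log2 ratio, with a median of 0.47 against 0.04 over all ranked genes. None reached 2-fold, which at the shares of 2.62% and 0.363% over all ranked genes is no result about the list. The class I genes *H2-Q7* and *H2-T22*, which are not in the list and are named after their values were seen, were past 2-fold at 37.9 and 102.4 CPM (1.43) and at 32.3 and 83.1 CPM (1.36). Reads of such near-identical genes can be split in counting. Below the 50 CPM limit, the peptide transporter genes *Tap1* and *Tap2* had log2 ratios of −0.11 (−0.63 to 0.40) and −0.19 (−0.92 to 0.52). *B2m*, the light chain of class I, was at 2313 and 3937 CPM, a log2 ratio of 0.77 (0.71 to 0.83). *Psmb9*, a subunit of the immunoproteasome, was at 56.5 and 102.4 CPM (0.86, interval 0.47 to 1.26), and *H2-K1* and *H2-D1*, the class I heavy chains, had log2 ratios of 0.42 and 0.54. *B2m* had almost the same ratio in the *Ccl8*/*Mrc1*/*C1qa* cells (0.75) and the *Spp1*/*Gpnmb*/*Cd36* cells (0.74).

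Among the 13 ranked genes of the chemokine list, 4 were at least 2-fold higher in the *Smo* cKO members (against 2.62% of all ranked genes). All 13 had a positive ratio, with a median of 0.70 against 0.04 over all ranked genes. *Ccl5* was at 248 and 738 CPM, a log2 ratio of 1.57 (1.40 to 1.74), and without the shared barcodes 1.72. Its ratio was 0.32 in the *Ccl8*/*Mrc1*/*C1qa* cells and 1.19 in the *Spp1*/*Gpnmb*/*Cd36* cells. *Ccl5* was at 200 and 213 CPM in the members of no range, a log2 ratio of 0.09 (−0.42 to 0.58), against 1.63 (1.40 to 1.86) in the *Fscn1*/*Ccl22* range. *Ccl4*, an inflammatory chemokine, was at 542 and 1336 CPM (1.30, interval 1.18 to 1.42), and *Cxcl10*, an interferon-induced ligand of CXCR3, at 57.1 and 129 CPM (1.18, interval 0.80 to 1.56). *Ccl12*, a monocyte chemokine, was at 65.8 and 200 CPM (1.61, interval 1.28 to 1.94), and outside the *C1qb*/*Apoe* range its ratio was 0.07. *Cxcl2*, the most abundant chemokine, was at 2122 and 3742 CPM, a log2 ratio of 0.82. *Ccl22* was at 74.5 and 120 CPM (0.69, interval 0.34 to 1.04). *Cxcl3*, which is not in the list and is named after its value was seen, was at 125 and 316 CPM (1.34, interval 1.10 to 1.59).

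*Il1b* was the 1 of 6 ranked genes of the cytokine list past 2-fold (against 2.62% of all ranked genes), at 760 and 1813 CPM, a log2 ratio of 1.25 (1.16 to 1.36). It was higher in every score range of the members, with log2 ratios from 1.17 in the *C1qb*/*Apoe* range to 1.54 in the *Cd209a*/*Clec10a* range. The ratio of *Il1b* was 0.50 in the *Ccl8*/*Mrc1*/*C1qa* cells, at 42.4 and 60.1 CPM, and 1.04 in the *Spp1*/*Gpnmb*/*Cd36* cells. *Il1rn*, the antagonist of interleukin 1, was at 205 and 341 CPM (0.73), and *Tnf* at 74.5 and 67.6 CPM (−0.14, interval −0.55 to 0.26). *Cd14*, a co-receptor for lipopolysaccharide, was at 393 and 761 CPM (0.95, interval 0.81 to 1.10).

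**Figure D3:**
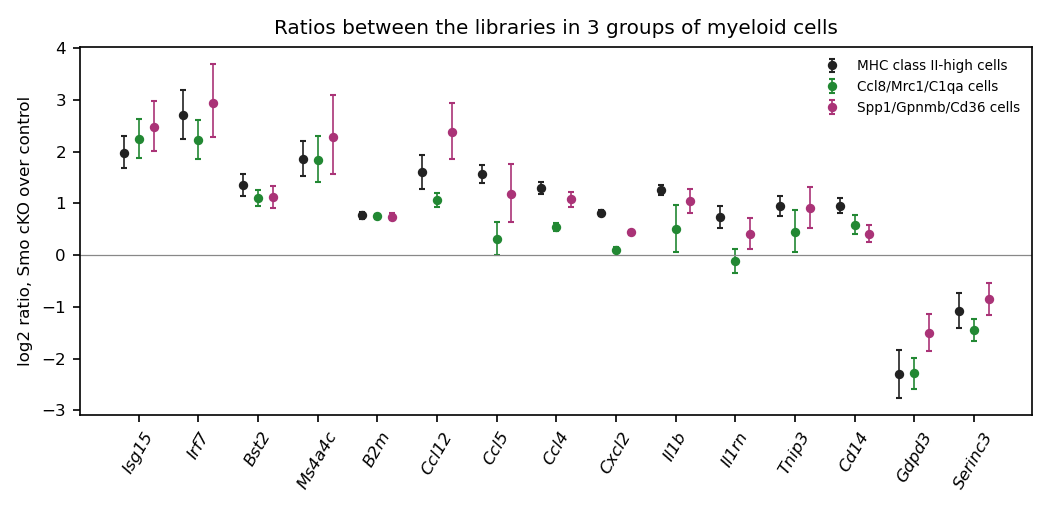
log2 ratio of the *Smo* cKO over the control library for 15 genes in the MHC class II-high cells (black), the *Ccl8*/*Mrc1*/*C1qa* cells (green) and the *Spp1*/*Gpnmb*/*Cd36* cells (magenta), with exact 95% intervals. *Isg15*, *Irf7* and *Bst2* are above 1 in all 3 groups, while *Ccl5* has 1.57 in the class II-high cells and 0.32 in the *Ccl8*/*Mrc1*/*C1qa* cells.

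Genes of dendritic identity differed in both directions. The 10 ranked genes of the mature migratory list had a median of 0.19 and the 10 NF-kB genes one of 0.06. None of either list reached 2-fold, which at the shares of 2.62% and 0.363% over all ranked genes is no result about these lists. *Fscn1*, the actin bundler of mature dendritic cells, was at 64.0 and 65.3 CPM (0.03, interval −0.40 to 0.45). *Irf8*, which type 1 dendritic cells require, was at 146 and 160 CPM (0.13, interval −0.14 to 0.40). *Naaa*, a lysosomal amidase of that subset, was at 85.1 and 57.2 CPM (−0.57, interval −0.996 to −0.16). *Clec10a*, a lectin of type 2 dendritic cells, was at 54.7 and 33.4 CPM (−0.71, interval −1.26 to −0.18). In the same score set, *Cd209a* (24.8 and 33.4 CPM) and *Mgl2* were higher in the *Smo* cKO members, whereas *Sirpa* (175 and 157 CPM) was lower. The type 2 dendritic list together was at 757 and 906 CPM, a log2 ratio of 0.26 (0.14 to 0.38). *Tnip3*, its most abundant gene, rose by more than the whole list, from 229 to 443 CPM. The 5 ranked genes of the list had a median of −0.16, with 2 above 0 and 3 below. The conventional dendritic list together was at 811 and 981 CPM, a log2 ratio of 0.28 (0.16 to 0.39). Most of this rise was in *Id2*, a regulator of dendritic cell development, at 570 and 733 CPM. The 3 ranked genes of this list had a median of 0.36. In the *Ccl8*/*Mrc1*/*C1qa* cells the list was at 747 and 671 CPM, so its sum is not particular to dendritic cells. *Flt3* of the same list, below 50 CPM, had a log2 ratio of −0.84 (−1.64 to −0.08), and *Zbtb46* one of 0.52 (−0.55 to 1.61). *Tnip3*, an inhibitor of NF-kB signaling, was at 229 and 443 CPM (0.96, interval 0.77 to 1.15). Of the costimulatory genes, *Tnfsf9*, which encodes 4-1BB ligand, was at 38.5 and 90.6 CPM (1.23, interval 0.78 to 1.70), whereas *Cd86* was at 142 and 146 CPM (0.04).

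Macrophage and monocyte genes were also higher in the *Smo* cKO members, with medians of 0.45 over 11 and 0.51 over 6 ranked genes. *Fcgr1*, the high-affinity receptor for IgG, was at 45.3 and 98.7 CPM (1.12, interval 0.70 to 1.55) and *Ms4a7* at 329 and 607 CPM (0.88, interval 0.72 to 1.04). *Ms4a4c*, an interferon-responsive gene of monocytes, was at 62.1 and 226 CPM (1.86, interval 1.53 to 2.20). *Apoe* had a log2 ratio of 0.47, and outside the *C1qb*/*Apoe* range 0.12. Outside that range the ratio of *Ms4a7* was 0.62, and that of *Fcgr1* lay between 1.01 and 1.24 over all alternatives, that one included. By range, the monocyte list had log2 ratios of 0.73 (*Xcr1*/*Clec9a*), 1.02 (*Cd209a*/*Clec10a*), 0.07 (*Fscn1*/*Ccl22*), 0.62 (*C1qb*/*Apoe*) and 0.60 (no range). The macrophage list had 0.05, −1.20, 0.15, 0.26 and 0.31 in the same order. For the remaining single genes of these lists, the part of the larger share of the *C1qb*/*Apoe* range among the *Smo* cKO members (35.2% against 26.1%) was not tested. Of the remaining lists, as for most genes at those shares, no gene reached 2-fold among 9 of endosomal processing (*Cst3* at 3374 and 3959 CPM), 4 pattern receptors, 7 chemokine receptors, 7 connective, 2 T or NK, 2 erythroid and 1 cell cycle gene.

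**Figure D4:**
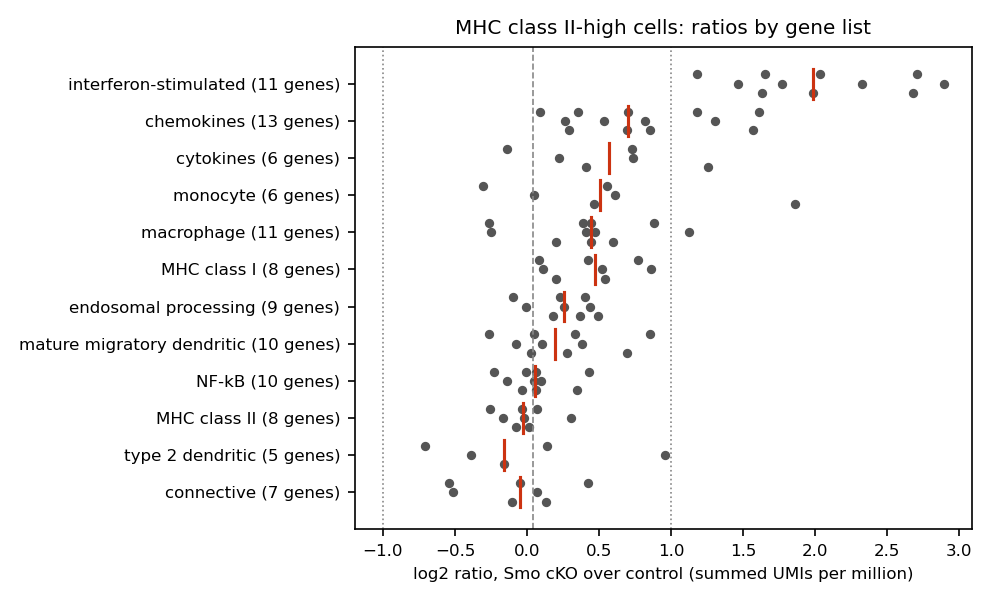
log2 ratio of the *Smo* cKO over the control members for each ranked gene (points) of 12 lists, with the median of each list (red line), the median of all 2478 ranked genes (dashed line, 0.04) and the 2-fold limits (dotted lines). The 11 ranked of 20 interferon-stimulated genes, 10 of which reached 50 CPM only in the *Smo* cKO members, lie above the upper 2-fold limit, and the 8 class II genes, 3 of which chose the members, lie between −0.25 and 0.31.

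The muscle genes *Acta1* and *Actc1* had the highest ratios of all, with log2 ratios of 5.54 and 4.94. Of the 311 *Acta1* UMIs in the *Smo* cKO members, 285 were in 1 cell. *Cdkn1c*, an inhibitor of the cell cycle, came next at 3.11, with 79 of its 130 UMIs in 1 cell. The muscle genes *Mylpf*, *Myog* and *Des* had 2.95, 2.89 and 2.57, with *Des* below *Xaf1*, *Irf7* and *Rtp4*. In all, 6 of the 65 higher genes had at least 50% of their *Smo* cKO UMIs in a single cell. When cells with over 10 UMIs of 5 muscle genes were left out, 60 genes were higher and the ratio of *Acta1* was 1.97. *Ly6a*, an interferon-responsive surface marker, was at 26.7 and 140 CPM (2.39). Among the 9 genes at least 2-fold lower, *Prg4*, which encodes lubricin, was at 181 and 11.9 CPM, a log2 ratio of −3.93, from 23 control cells. With at most 2000 genes per cell its ratio was −1.09 (−2.92 to 0.46), and with collagen under 0.5% of UMIs it was −0.68 and no longer past 2-fold. *Gdpd3*, a phosphodiesterase gene, was at 174 and 35.6 CPM (−2.29, interval −2.76 to −1.84) and was similarly low in the *Ccl8*/*Mrc1*/*C1qa* cells (−2.28). *Vcam1*, an adhesion molecule, was at 78.3 and 31.2 CPM (−1.33), and *Mmp13*, *Gm34084*, *Ankrd13a*, *Zfp131*, *C3* and *Serinc3* had ratios between −1.31 and −1.07. *Cirbp*, the next lowest, had −0.95.

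Depth differed between the libraries, so shares of cells with a UMI were also compared at 1000 UMIs per cell, as the share expected over all ways of drawing them. This kept 486 control and 324 *Smo* cKO members and left out 24 and 3, with reference connective cells (collagen at 2% of UMIs or more, no *Tyrobp* or *Fcer1g*) set beside them as cells that should lack genes of immune cells, at median depths of 9564 and 11048 UMIs, against 2719 and 3467 in these members. *Isg15* was detected in 5.42% and 19.4% of the members, a difference of 14.0 points (interval 9.49 to 19.0), and in 1.19% and 10.8% of the connective cells. Without thinning it was detected in 11.4% and 41.6% of the members and in 7.42% and 40.6% of the connective cells. *Il1b* was detected in 32.2% and 48.3% of the members (16.0 points, 8.96 to 22.6), and in 0.166% and 0.318% of the connective cells. *Ccl5* was detected in 7.26% and 12.4% (5.13 points, 1.03 to 9.63), against 1.03% and 1.70% of the connective cells. Since those cells are deeper, thinning lowers their shares more, and without it *Ccl5* was in 4.87% and 8.41% of them and in 10.6% and 16.8% of the members. *H2-Aa* was detected in 90.3% and 85.9% (−4.34 points, −9.34 to −0.04), and unthinned in 96.7% and 96.0%, against 0.935% and 0.622% of the connective cells, or 8.37% and 6.13% unthinned. *Ccr7* was detected in 13.05% and 14.9% (1.89 points, −2.91 to 6.91), against 0.037% and 0.059% of the connective cells. *Fscn1* was detected in 2.99% and 4.65% of the members but in 11.4% and 13.2% of the connective cells, which without thinning had it in 61.6% and 67.2% and so give no background for this gene. *Flt3* was detected in 2.46% and 1.60%.

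**Figure D5:**
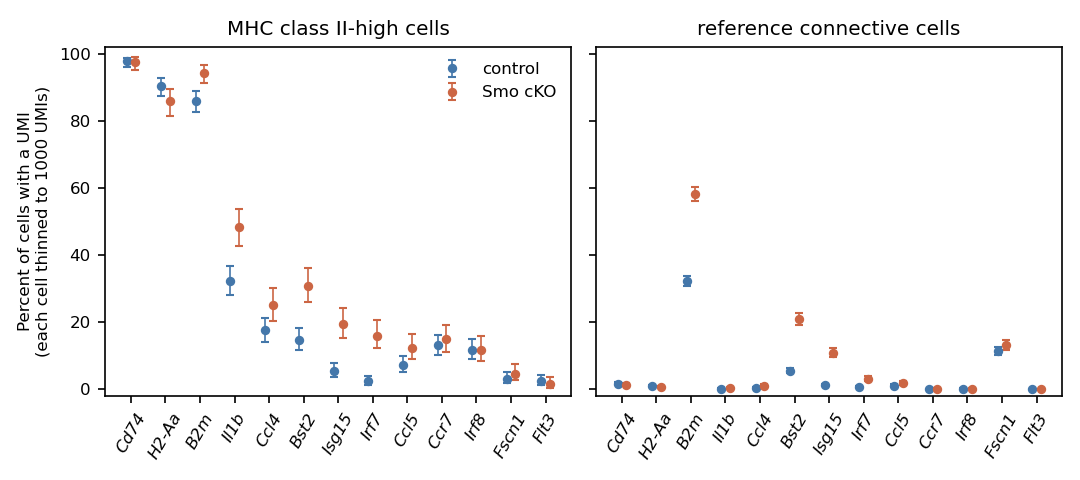
Percent of cells with a UMI at 1000 UMIs per cell, for the MHC class II-high cells (left) and the reference connective cells (right) of the control (blue) and *Smo* cKO (orange) library, with 95% Clopper-Pearson intervals. *Isg15* is detected in 5.42% and 19.4% of the class II-high cells, and *Fscn1* in a larger share of the connective cells than of the class II-high cells.

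Genes of other cell types were also read in the members. The 8 connective genes together were at 4382 and 4419 CPM, and hemoglobin RNA differed in its spread, with *Hbb-bs* at 1503 and 1573 CPM but with a UMI in 54.9% of control and 86.9% of *Smo* cKO members, and 49.6% of its *Smo* cKO UMIs were in 1 cell. Neutrophil genes together were at 66.5 and 78.7 CPM, endothelial genes at 10.6 and 14.1 CPM, B cell genes at 60.9 and 79.4 CPM, and mast or basophil genes at 6.21 and 5.20 CPM. Their part in the differences between the libraries was not tested.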

How the data were processed

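The authors aligned reads to mm10 with Cell Ranger 3.0.2 and deposited raw UMI counts for each gene and cell, without normalization. These whole counts were used here, and 2 libraries, each of 3 pooled animals, were assigned by the labels. The members and gene lists were chosen with earlier results of these data known. Members were selected as the opening states, with no upper gene limit, whereas the study kept at most 2000 genes (an alternative here). UMIs of the members were summed in each library and divided by their total (CPM), and log2 ratios are *Smo* cKO over control with exact Poisson intervals. Genes were ranked at 50 CPM in at least 1 library and counted at 2-fold. Genes at 0 in a library were set to a floor of 3 counts for the counting of 2-fold genes. Shares have Clopper-Pearson intervals and differences Newcombe intervals, at 95%. With 1 library for each genotype no test was possible.

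The genes named are the 4 markers, genes of the fixed lists by level or past 2-fold, the 10 highest and 10 lowest ratios, and the 20 genes that most set members apart, except some genes of the score sets and lists that are not reported here, and leaving out mitochondrial, ribosomal, hemoglobin, immunoglobulin and sex genes from the rankings. *Ccl22*, *Ifitm1*, *Klrb1b* and *Apol7c* were added to the genes with thinned shares after their values were seen. Shares at 1000 UMIs were planned as 1 random draw per cell. When the list of genes was extended after a first draw, the draw changed and the values moved, so the share expected over all draws (hypergeometric) was used instead, with intervals from the rounded expected number of cells, and 20 single draws were kept as an alternative. Doublets were not removed. Scrublet marked 1 cell in each library, so it did not work here and no result without doublets is given. On simulated counts for the members, with 200 genes changed 4-fold, all 197 changed genes among 2349 ranked were recovered and 0 of 2152 unchanged genes was called. These counts held Poisson error only, without differences between cells, animals or libraries, and 4-fold is well past the 2-fold limit. The simulation therefore checks the calculation only and gives no rate of false calls in the data. Gene positions are from GENCODE vM21, matching 30934 of 31054 features. Python 3.11.15, numpy 2.4.6, scipy 1.17.1, pandas 2.3.3 and scanpy 1.11.5 were used.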

Additional observations from a re-analysis of the deposited data

How the results depend on the processing

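No paired analysis was possible because there is 1 library for each genotype and the labels give no replicate numbers, and for the same reason no replicate could be left out. Over the alternatives tried, the share of class II-high cells among gated cells was lower in the *Smo* cKO library throughout. With at most 2000 genes per cell it was 25.6% of control and 14.0% of *Smo* cKO gated cells (−11.6 points), and with scores computed within each library the difference was −6.61 points. The numbers of genes past 2-fold followed the level at which genes were ranked, by construction, with 141 higher and 54 lower at 20 CPM and 30 higher and 3 lower at 100 CPM. The difference for *Isg15* detection was 21.9 points at 2000 UMIs and 30.2 points without thinning. In 20 single draws at 1000 UMIs, an alternative added after seeing the data, it was 10.9 to 17.3 points, that for *Il1b* was 12.2 to 22.6 points, that for *H2-Aa* −6.48 to −1.13 points, and those for *Ccr7* and *Irf8* took both signs (−2.78 to 3.498 and −3.19 to 2.67 points). The other 89 values for the main results and 380 for single genes and the smaller ranges stayed within the interval or 1.5 times of the value reported, and 31 of the latter did not. Among these, the log2 ratio of *Prg4* was −0.68 with collagen under 0.5% and −1.09 with at most 2000 genes, that of *Ccl12* lay between 0.07 and 1.76, that of *Apoe* between 0.12 and 0.73, and that of *Ccr7* between −0.02 and 0.31. The cause was not tested. Leaving out the shared barcodes, the cells with muscle genes or the *C1qb*/*Apoe* range was also added after seeing the data.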
